A study of Mus musculus with 12 samples.

Results

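DNA replication and mitosis genes were followed in the mouse mammary gland across 2 genotypes and 2 treatment times. The set held 59 listed genes, 29 that act in DNA replication and 30 that act in mitosis, and all probe sets annotated to 1 of them alone were taken from the expression table. Of the 59 genes, 57 had such a probe set, 130 probe sets in all, among 18193 genes named on the array. Ccnb1 and Chaf1a had no probe set with that 1 symbol. Each gene is given by 1 probe set, the one brightest on average over the 12 arrays (log2), and was tested where this probe set exceeded the array median on 3 or more arrays. By this rule 41 members were tested among 12002 genes, 26 of the replication genes and 15 of the mitosis genes. The 16 members below it were the replication genes Tyms and Cdc6 and the mitosis genes Bub1, Bub1b, Ttk, Plk1, Aurka, Aurkb, Cenpe, Cenpf, Kif11, Kif20a, Tpx2, Ect2, Hmmr and Dlgap5. Of the members tested, 29 lay above the median on all 12 arrays, and the other 12 passed on some arrays only.

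All mice were ovariectomized BALB/c females, 10 weeks old, either wild type or null for the progesterone receptor. The labels do not describe the null allele. Every animal was given 17β-estradiol (100 ng) under the skin for 24 h, followed by 17β-estradiol with progesterone (2.5 ug) for 8 h or 24 h, so no group went without progesterone and the length of 17β-estradiol exposure differed between the times too. Each of the 4 groups had 3 arrays, each hybridised with whole-gland RNA pooled from 3 mice. Pgr, the targeted gene, averaged 9.94 (log2) in wild type against 8.89 in null glands at 8 h by its representing probe set, but 4.87 against 6.84 by another, and the probe sets were not located against the null allele here.

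Cells copy their DNA in S phase and divide it in mitosis, and the genes of both steps are transcribed in waves as cells enter the cycle. Replication genes are known targets of E2F transcription factors, which switch them on as cells leave G1. Many mitosis genes are switched on later, through a promoter element called the cell cycle genes homology region (CHR), often together with CCAAT boxes bound by NF-Y. In the mammary gland, progesterone is known for driving proliferation of the epithelium, in large part through paracrine signals from cells that hold its receptor. In RNA from whole glands, fewer cells of a type and less RNA per cell cannot be told apart.

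The promoters of both gene classes are shown first, since the share of genes with these elements differed between the listed classes. Promoter windows of RefSeq on assembly GRCm38.p6, from 250 bases before to 50 bases after a gene's start, were found for 49 of the 59 members, 25 replication and 24 mitosis genes. They were searched on both strands for E2F (TTTCCCGC, TTTGGCGC, TTTCGCGC or TTTGCCGC), CHR (TTTGAA) and the CCAAT box (CCAAT). The stretches below lie before the start site and run 5′ to 3′ on the gene's strand. Capitals mark every match on either strand, and overlapping E2F matches run together. The 4 replication genes were chosen because they hold E2F matches there and are among the genes with the largest differences below. The 5 mitosis genes include 3 that are given in every pool below (Mki67, Top2a and Cdk1).
Mcm5, chr8:75109351-75109441, plus strand: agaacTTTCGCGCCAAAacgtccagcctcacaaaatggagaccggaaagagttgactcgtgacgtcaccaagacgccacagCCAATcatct
Mcm6, chr1:128359740-128359820, minus strand: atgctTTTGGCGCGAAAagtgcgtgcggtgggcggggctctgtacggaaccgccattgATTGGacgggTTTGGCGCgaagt
Mcm7, chr5:138171943-138172053, minus strand: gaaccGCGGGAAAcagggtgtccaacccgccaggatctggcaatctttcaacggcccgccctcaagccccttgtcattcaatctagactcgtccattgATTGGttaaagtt
Uhrf1, chr17:56304123-56304213, plus strand: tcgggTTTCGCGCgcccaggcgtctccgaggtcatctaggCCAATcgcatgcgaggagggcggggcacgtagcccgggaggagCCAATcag
Mki67, chr7:135716469-135716569, minus strand: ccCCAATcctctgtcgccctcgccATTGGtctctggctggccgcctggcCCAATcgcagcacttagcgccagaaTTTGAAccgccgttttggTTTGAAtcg
Top2a, chr11:99024204-99024294, minus strand: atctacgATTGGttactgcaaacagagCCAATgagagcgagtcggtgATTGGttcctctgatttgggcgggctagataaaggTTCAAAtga
Ccnb2, chr9:70421566-70421646, minus strand: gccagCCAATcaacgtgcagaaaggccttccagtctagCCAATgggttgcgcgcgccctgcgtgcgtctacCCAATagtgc
Cdk1, chr10:69352917-69353047, minus strand: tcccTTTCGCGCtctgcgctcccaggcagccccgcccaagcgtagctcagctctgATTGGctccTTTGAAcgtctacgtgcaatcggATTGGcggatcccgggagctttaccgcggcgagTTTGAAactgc
Cdc20, chr4:118437344-118437403, minus strand: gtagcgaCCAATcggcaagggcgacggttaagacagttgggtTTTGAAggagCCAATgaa

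E2F matches were held by 11 of 25 replication genes (44%) and 1 of 24 mitosis genes (4.17%), against 448 of 9635 tested genes with a promoter window (4.65%). The replication genes were Mcm3, Mcm5, Mcm6, Mcm7, Lig1, Rfc3, Pola1, Pold1, Cdc6, Cdt1 and Uhrf1, and the mitosis gene was Cdk1, which encodes the kinase that starts mitosis. In Mcm3, Lig1, Pold1 and Cdt1 the matches lay after the start site. The order was the other way round for the CHR, held by 3 of 25 replication genes (12%) and 19 of 24 mitosis genes (79.2%), against 14.1% of the tested genes. A CHR and a CCAAT box stood in the same window in 2 replication and 18 mitosis genes (75%), against 6.6% of the tested genes. In Ccnb2 the stretch shown holds 3 CCAAT boxes in one orientation and no CHR, which lay elsewhere in its window. The CCAAT box alone separated the classes less, with 64% and 87.5% against 42.1%. In longer lists of other replication and other mitosis genes the shares lay closer together. They were 30% and 10.6% for E2F, 30% and 59.6% for the CHR and 60% and 61.7% for the CCAAT box. A match is a run of letters and not a measured binding site, and none of these shares was tested.

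**Figure D1:**
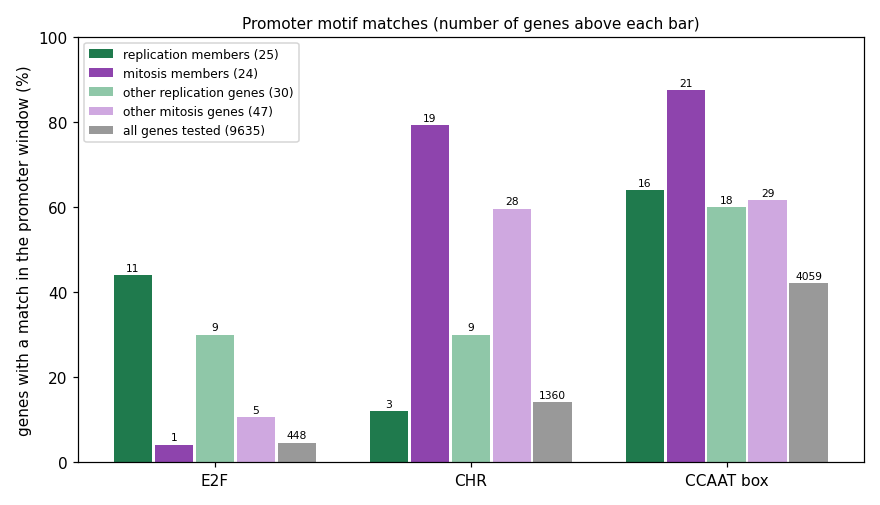
Share of genes (%) with at least 1 match to each motif in the promoter window, for the members, for the other replication and mitosis genes of the longer lists, and for all tested genes with a window; the number of genes is above each bar. The replication members stand highest for E2F (44%) and the mitosis members for the CHR (79.2%) and the CCAAT box (87.5%).

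Across the 12 arrays, both classes were on average highest in wild type at 24 h, with a wide spread between pools. The mean deviation of the 26 tested replication genes from their own means was −0.08, −0.06 and −0.04 (log2) in wild-type pools 1 to 3 at 8 h and 0.34, 0.08 and 0.34 at 24 h. In null glands it was −0.30, −0.15 and −0.10 at 8 h and −0.30, 0.02 and 0.23 at 24 h. All 3 wild-type pools at 24 h thus lay above all 3 at 8 h, whereas the null groups overlapped, with the lowest and the highest null pool both at 24 h. For the 15 tested mitosis genes the values were −0.20, −0.21 and −0.09 in wild type at 8 h, 0.27, −0.01 and 0.39 in wild type at 24 h, −0.45, 0.08 and −0.10 in null glands at 8 h and −0.18, 0.09 and 0.40 in null glands at 24 h. Null pool 1 was the lowest of its group at both times, for both classes.

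**Figure D2:**
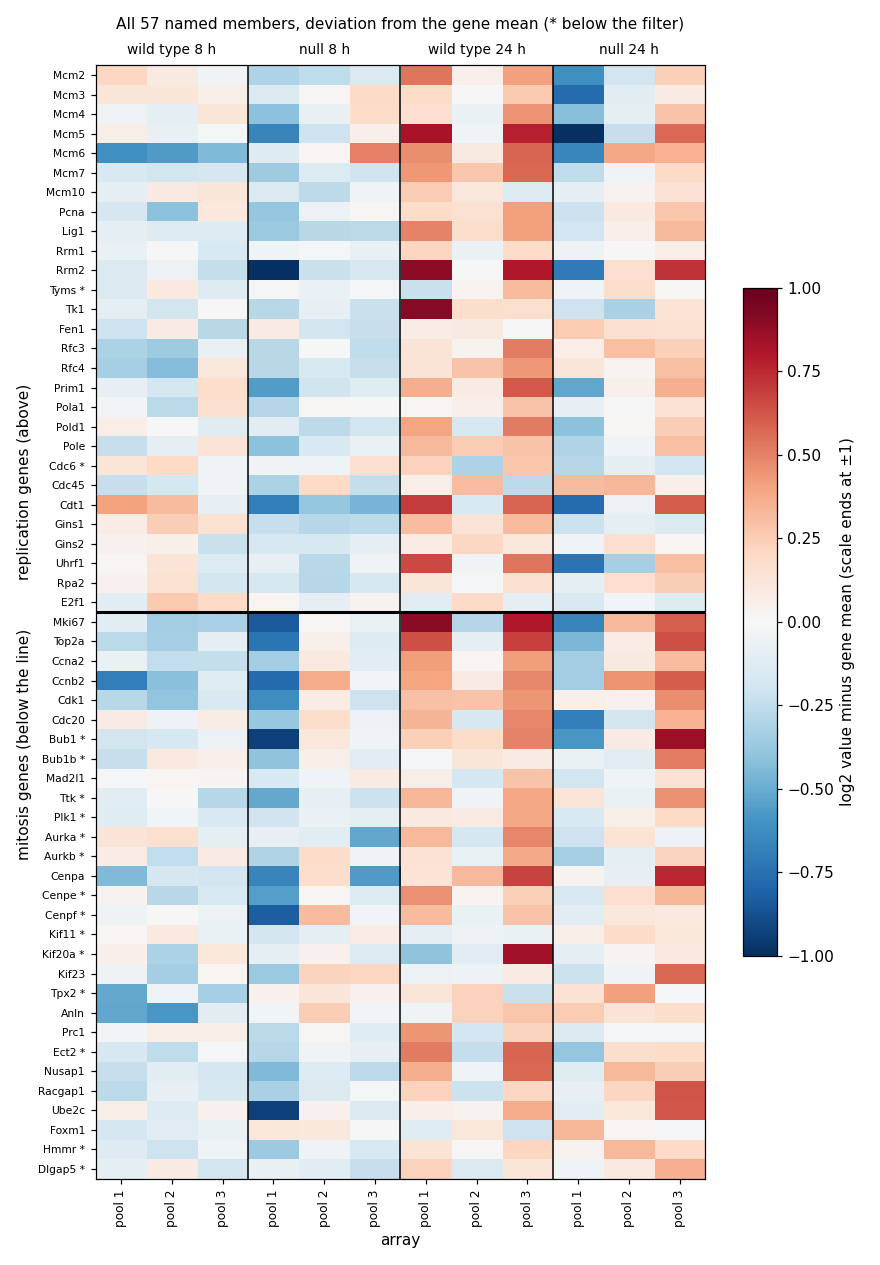
Deviation of the log2 value from the gene's mean over 12 arrays (colour, blue lower and red higher, scale ending at ±1) for the 57 named members, replication genes above the line and mitosis genes below it, with 1 column per pool. Wild-type pools 1 and 3 at 24 h and null pool 3 at 24 h are red in most rows, and null pool 1 is blue in most rows at both times.

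Markers of lymphocytes differed between the same pools, by more. A mammary gland sample can hold a lymph node, whose lymphocytes divide. The 6 tested of 8 B lymphocyte markers had a mean deviation of −1.54, 1.03 and 2.02 (log2) in null pools 1 to 3 at 24 h and 0.95, −0.44 and 1.39 in the wild-type pools at 24 h. The values at 8 h were 0.28, 0.16 and −1.61 for wild-type and −1.87, −0.38 and 0.02 for null pools. The 7 tested of 8 T lymphocyte markers ranged from −1.12 to 1.85 in null glands at 24 h and from −0.68 to 0.99 in wild type at 24 h, with the pools in the same order. Pools with the lowest lymphocyte markers were also lowest for both member classes in null glands at 8 h and at 24 h and in wild type at 24 h. The exception was wild-type pool 3 at 8 h, lowest for both lymphocyte lists and highest of its group for both member classes. The part of lymphocytes in the results that follow was not tested.

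Markers of luminal epithelium, the layer that lines the ducts, stood higher on average in wild type than in null glands at 24 h. Their mean deviation over 11 of 12 markers was 0.30, −0.01 and 0.42 in wild type and −0.21, −0.20 and −0.44 in null glands at 24 h, and the 2 groups did not overlap. The median difference, wild type minus null, was 0.70 at 24 h, with 8 of 11 luminal markers positive. For B lymphocyte markers it was 0.21, with 4 of 6 positive, and for T lymphocyte markers −0.16, with 2 of 7 positive. At 8 h the mean deviation of the luminal markers ranged from −0.14 to 0.05 in wild type and from 0.00 to 0.22 in null glands. In wild type at 24 h, pool 2 was lowest for the luminal markers as well as for the members and the lymphocyte markers. In null glands at 24 h, pool 3 was lowest for the luminal markers and highest for the members. Skeletal muscle markers also varied, from −3.78 in null pool 2 at 8 h to 2.36 in wild-type pool 1 at 24 h. Brown adipocyte markers were highest in pool 1 in both null groups (0.78 at 8 h and 0.76 at 24 h). The part of these markers in the results was not tested either.

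**Figure D3:**
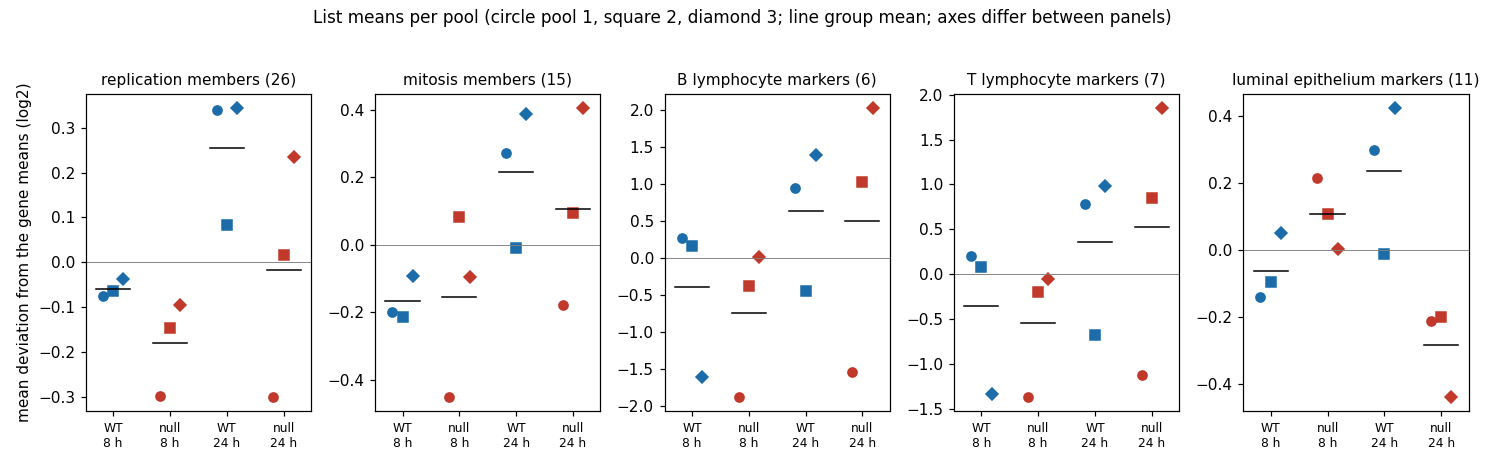
Mean deviation from the gene means (log2) per pool for the replication and mitosis members and for B lymphocyte, T lymphocyte and luminal epithelium markers, with the number of genes in brackets, 1 symbol per pool and a line at the group mean; the axes differ between panels. The lymphocyte markers span −1.87 to 2.02, several times the span of the member classes.

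The first comparison asked whether these genes differed with the receptor after 8 h of progesterone. Gins1, a subunit of the GINS complex that activates the replicative helicase, was higher in wild type, and no other member was called. Its log2 values were 6.08, 6.25 and 6.15 in wild-type pools 1 to 3 and 5.77, 5.72 and 5.74 in null pools. The groups did not overlap, and the difference was 1.34-fold (log2 0.42, SE 0.10, limma adjusted p = 0.039). By 24 h its pools stood at 6.31, 6.13 and 6.32 against 5.79, 5.91 and 5.86, again without overlap and of like size (1.32-fold, SE 0.10), but not called (adjusted p = 0.079). All 6 wild-type pools thus lay above all 6 null pools. The wild-type pools also lay above the array medians (5.84 to 5.91), whereas the null pools at 8 h lay below them. Gins1 exceeded the median on 8 of 12 arrays, so it passed the filter mainly through wild type, where it was high. The call at 8 h is close to its threshold and was lost when any of 9 of the 12 arrays was left out (adjusted p from 0.0502 to 0.16). These 9 were all but wild-type pools 2 and 3 and null pool 1 at 24 h. It was also lost with no filter, with the replicate block and with only the compared groups in the fit, where Cdt1 was called instead (Gins1 adjusted p from 0.0504 to 0.064).

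Of the 26 replication genes, 1 was called higher in wild type at 8 h and 0 lower, and of the 15 mitosis genes limma called 0, with 1 (Anln) at an unadjusted p below 0.05. Over all genes tested, 3.00% were called, 1.58% higher and 1.42% lower in wild type, and over all probe sets 3.07%, so the members' count is near this background. The fitted difference was positive for 20 replication genes and negative for 6, with a median of 0.12, and positive for 8 and negative for 7 mitosis genes, with a median of 0.04. Over all genes tested, 52.6% were positive and the median was 0.01. Besides Anln, given below, the mitosis genes with the largest differences were Ube2c (0.33) and Ccnb2 (−0.26), with limma adjusted p of 0.57 and 0.75.

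Among the factors that load the helicase onto origins, Cdt1 had the largest difference at 8 h. Its values were 8.61, 8.53 and 8.13 in wild type and 7.52, 7.83 and 7.75 in null glands (log2 difference 0.72, SE 0.31, adjusted p = 0.28). These groups did not overlap, but at 24 h they did, at 8.91, 8.06 and 8.79 against 7.44, 8.15 and 8.82. Mcm2, a subunit of the MCM2-7 helicase itself, was 8.23, 8.12 and 7.99 in wild type and 7.72, 7.77 and 7.88 in null glands at 8 h, without overlap (log2 difference 0.32, adjusted p = 0.45).

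Mcm6 and Anln stood the other way at 8 h. Mcm6, another subunit of the helicase, was at 6.95, 6.99 and 7.12 in wild type and at 7.43, 7.58 and 8.06 in null glands (1.59-fold lower in wild type, SE 0.26, adjusted p = 0.22). Its second tested probe set also gave a negative difference (−0.74). Anln, which encodes anillin, a scaffold of the contractile ring in cytokinesis, was at 6.21, 6.14 and 6.62 in wild type and at 6.70, 6.97 and 6.70 in null glands (1.38-fold lower, SE 0.14, adjusted p = 0.11). Neither pair of groups overlapped, and neither gene was called, although Anln was called without wild-type pool 3 at 8 h (log2 −0.61, adjusted p = 0.034). Groups without overlap were found for 4 replication genes higher in wild type (Mcm2, Lig1, Cdt1 and Gins1), 1 replication gene lower (Mcm6) and 2 mitosis genes lower (Anln and Foxm1). Over all genes tested, 13.7% did not overlap and were higher and 11.2% were lower.

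At 24 h no member was called between the genotypes. Limma called 0 of 26 replication genes, of which 7 had an unadjusted p below 0.05, and 0 of 15 mitosis genes, of which 0 did, against 1.30% of all genes tested (1.05% higher and 0.250% lower in wild type) and 1.11% of all probe sets. The difference was positive, that is higher in wild type, for 23 of the 26 replication genes, with a median of 0.30, while the median over all genes tested was 0.01 and 53.2% were positive. Without null pool 1 at 24 h, the pool lowest for these genes and for the lymphocyte markers, the replication median was 0.11. For mitosis genes the difference was positive for 10 and negative for 5, with a median of 0.14.

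All 6 helicase subunits had a positive difference at 24 h, with a median of 0.44 and a range of 0.26 to 0.76. Mcm5 was at 8.06, 7.20 and 8.02 in wild type and at 6.19, 7.01 and 7.80 in null glands, so that the groups overlapped (1.69-fold, SE 0.35, adjusted p = 0.37). Mcm7 was at 10.03, 9.87 and 10.18 against 9.34, 9.56 and 9.80, without overlap (log2 0.46, SE 0.11, adjusted p = 0.094). Its other tested probe sets gave smaller differences of 0.22, 0.29 and 0.30 (limma adjusted p from 0.37 to 0.56), without overlap only for the last. Mcm2 was at 8.56, 8.08 and 8.44 against 7.41, 7.84 and 8.27. In each of the 3 genes the null pools ran from pool 1, the lowest, to pool 3, the highest, as the lymphocyte markers did.

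Uhrf1, which recruits the maintenance DNA methyltransferase to newly copied DNA, was at 6.59, 5.90 and 6.46 in wild type and at 5.19, 5.59 and 6.23 in null glands at 24 h (1.56-fold, SE 0.24, adjusted p = 0.27). Tk1, the thymidine kinase of the nucleotide salvage pathway, was at 6.76, 6.03 and 6.02 against 5.65, 5.53 and 6.0. Its groups did not overlap, though by a narrow margin between wild-type pool 3 and null pool 3 (1.46-fold, SE 0.19, adjusted p = 0.24). Tk1 exceeded the array median on 5 arrays, among them every wild-type pool at 24 h. Tk1 thus passed the filter mainly through the group where it was high. Groups without overlap were found for Mcm7, Tk1 and Gins1, higher in wild type, and for Fen1, the flap nuclease of Okazaki fragments, lower, where all genes tested gave 10.2% higher and 5.65% lower. The direction of Fen1 depended on the probe set, at −0.13 (log2) by this one and 0.26, with overlap, by its other tested probe set. Mcm7 and Gins1 were called without wild-type pool 2 at 24 h, and Mcm7 was also called without null pool 3 at 24 h.

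The mitosis genes with the largest differences at 24 h were Cdc20, Mki67 and Top2a, and none was called. Cdc20, the activator of the anaphase-promoting complex, differed by 0.39 (log2, SE 0.24, adjusted p = 0.52). Mki67, which encodes the proliferation antigen Ki-67, was at 8.18, 6.98 and 8.08 in wild type and at 6.61, 7.60 and 7.87 in null glands (log2 0.39, SE 0.37, adjusted p = 0.70). Top2a, the topoisomerase that untangles sister chromatids, was at 7.56, 6.82 and 7.59 against 6.45, 6.98 and 7.56 (log2 0.33, SE 0.29, adjusted p = 0.68). For both Mki67 and Top2a, wild-type pools 1 and 3 were high and pool 2 was low, and the groups overlapped across most of their range.

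The interaction asked whether the genotype difference itself changed between 8 h and 24 h. Limma called 0 of 41 members, with 2 replication genes and 1 mitosis gene at an unadjusted p below 0.05, against 0.133% of all genes tested (0.100% more positive and 0.0333% more negative at 24 h) and 0.143% of all probe sets. The largest was Mcm6, whose genotype difference moved from −0.67 to 0.35 (interaction 1.02, SE 0.36, adjusted p = 0.61). All 6 helicase subunits had a positive interaction, with a median of 0.37, whereas all 5 tested licensing and firing factors (Cdt1, Mcm10, Cdc45, Gins1 and Gins2) had a negative one, with a median of −0.15. These role groups were formed after the values were seen and have no test. After Mcm6 the largest among replication genes were Uhrf1 (0.51, SE 0.34) and Mcm5 (0.50, SE 0.50). For Anln the interaction was 0.44 (adjusted p = 0.88), and for Ube2c it was negative (−0.38, SE 0.34). For Mki67 it was 0.35 (adjusted p = 1) and turned to −0.03 without null pool 1 at 24 h. The medians were 0.13 for replication genes, 0.06 for mitosis genes and 0.01 for all genes tested, and the mitosis median was 0.32 without null pool 3 at 24 h.

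Between 8 h and 24 h in wild type, 3 members rose, the replication genes Mcm7 and Lig1 and the mitosis gene Anln, and 0 fell. Over all genes tested, 5.27% were called, 1.45% that rose and 3.82% that fell, and over all probe sets 5.22%. The difference was positive for 25 of 26 replication genes, all but E2f1 (−0.12), with a median of 0.26, and for 15 of 15 mitosis genes, with a median of 0.47. The median over all genes tested was −0.01, with 48.0% positive. The comparisons over time use the same wild-type arrays as the genotype comparisons, so their values are not independent of those above.

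Mcm7 was at 9.44, 9.42 and 9.43 in wild type at 8 h and at 10.03, 9.87 and 10.18 at 24 h, with a spread at 8 h that was very small (SD 0.01, n = 3). The rise was 1.51-fold (SE 0.11, adjusted p = 0.017). Mcm7 had 4 tested probe sets, and all 4 gave a positive difference (0.74, 0.59, 0.42 and 0.43, log2), of which the first was called as well (adjusted p = 0.017). In null glands Mcm7 was at 9.24, 9.46 and 9.40 at 8 h and at 9.34, 9.56 and 9.80 at 24 h, a difference of 0.20 (SE 0.11, adjusted p = 0.36). The difference between these time courses is the interaction, which was 0.40 for Mcm7 (SE 0.16) and not called (adjusted p = 0.80).

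Lig1, the ligase that seals Okazaki fragments, was at 7.36, 7.32 and 7.32 in wild type at 8 h and at 7.95, 7.63 and 7.86 at 24 h (1.40-fold, SE 0.12, adjusted p = 0.046). The null groups were lower at both times but also did not overlap, at 7.08, 7.17 and 7.18 and then 7.26, 7.50 and 7.77 (1.29-fold, SE 0.12, adjusted p = 0.11). Anln was at 6.21, 6.14 and 6.62 and then 6.68, 6.95 and 7.0 in wild type (1.47-fold, SE 0.14, adjusted p = 0.042). In null glands it was already near that level at 8 h and differed by 0.12 (SE 0.14, adjusted p = 0.66). The 3 calls depend on single pools. Without wild-type pool 1 at 8 h, wild-type pool 2 at 8 h or wild-type pool 3 at 24 h, 0 members were called, and without null pool 3 at 8 h or null pool 2 at 24 h only 1 was. Mcm7 was lost without any of the first 3 pools (adjusted p from 0.052 to 0.071). Lig1 was lost without any of 9 pools and Anln without any of 7. Both were also lost with no filter, with arrays centred on their median and with only the compared groups in the fit, where Mcm6, Mcm7 and Cdk1 were called.

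**Figure D4:**
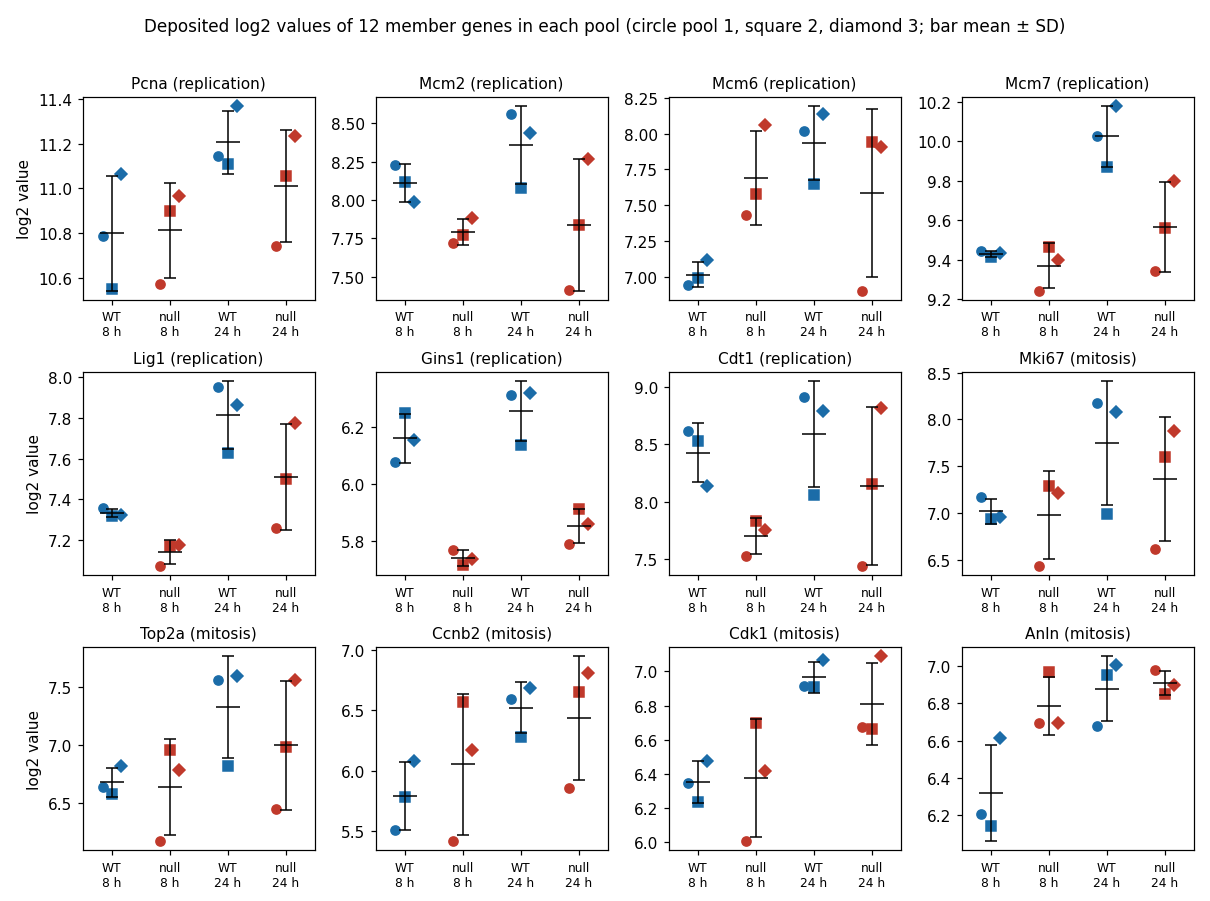
Deposited log2 values of 12 member genes in each group, with 1 symbol per pool (circle pool 1, square pool 2, diamond pool 3) and the mean ± SD of 3 pools as a bar; the vertical axes differ between genes. Mcm7, Lig1 and Cdk1 in wild type at 24 h lie above all wild-type pools at 8 h, Gins1 separates the genotypes at both times, and Mki67 and Top2a spread widely between pools at 24 h.

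Other replication genes had differences of like size without a call. Mcm6 was at 6.95, 6.99 and 7.12 in wild type at 8 h and at 8.02, 7.65 and 8.14 at 24 h, the largest difference among the replication members (1.89-fold, SE 0.26, adjusted p = 0.062), and was called without null pool 1 at 24 h (adjusted p = 0.015). In null glands it was at 7.43, 7.58 and 8.06 and then 6.91, 7.94 and 7.91, a difference of −0.10. Pcna, the sliding clamp that holds the polymerases on DNA, was at 10.79, 10.55 and 11.06 and then 11.14, 11.11 and 11.37 in wild type (log2 0.41, SE 0.16, adjusted p = 0.16). In null glands Pcna was at 10.57, 10.90 and 10.97 and then 10.74, 11.06 and 11.24. Rfc3 and Rfc4, subunits of the loader that places this clamp, differed by 0.47 and 0.50 in wild type (adjusted p = 0.076 and 0.059) and by 0.38 and 0.37 in null glands. Rrm2, the regulated subunit of ribonucleotide reductase, differed by 0.72 with a wide error (SE 0.35, adjusted p = 0.27).

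By role, all 10 polymerase and fork proteins had a positive time difference in both genotypes, with medians of 0.37 in wild type and 0.28 in null glands. The 6 helicase subunits were all positive in wild type, with a median of 0.39, while in null glands 4 were positive and 2 negative, with a median of 0.03. The 5 licensing and firing factors were positive in both, with medians of 0.16 and 0.19. The interaction tests above are the tests of such differences, and none passed.

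Mitosis genes with large differences in wild type included the kinase Cdk1 and its cyclin partner. Cdk1 was at 6.35, 6.23 and 6.48 at 8 h and at 6.92, 6.91 and 7.07 at 24 h, without overlap (1.53-fold, SE 0.17, adjusted p = 0.059). Ccnb2, which encodes cyclin B2, a partner of Cdk1, was at 5.51, 5.79 and 6.08 and then 6.60, 6.28 and 6.68 (1.66-fold, SE 0.30, adjusted p = 0.19). Mki67 was at 7.17, 6.93 and 6.95 and then 8.18, 6.98 and 8.08 (1.66-fold, SE 0.37, adjusted p = 0.28). Cdk1 and Ccnb2 separated the times in all pools, but Mki67 did not, because pool 2 at 24 h was within the range at 8 h. Top2a was at 6.64, 6.58 and 6.82 and then 7.56, 6.82 and 7.59, and its difference was 0.64 (SE 0.29, adjusted p = 0.22).

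Groups without overlap that were higher at 24 h were found in wild type for 10 replication genes (Mcm6, Mcm7, Pcna, Lig1, Rrm2, Tk1, Rfc3, Rfc4, Pole and Gins2) and 6 mitosis genes (Ccna2, Ccnb2, Cdk1, Cenpa, Anln and Nusap1), and 0 members lay lower without overlap. Of these, Tk1 and Pole each exceeded the array median on 5 arrays, among them every wild-type pool at 24 h. Both thus passed the filter mainly through the group where they were high. Over all genes tested, 10.1% did not overlap and were higher at 24 h and 16.1% were lower. The lymphocyte lists shifted the same way over time, by a median of 0.97 for the 6 B lymphocyte and 0.81 for the 7 T lymphocyte markers in wild type, with 0 of these called. The luminal markers had a median of 0.31, with 3 of 11 called as risen, against 1.45% of all genes tested. Their part in the members' change was not tested.

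In null glands, between the same times, 0 of 41 members were called by limma, with 5 replication and 5 mitosis genes at an unadjusted p below 0.05, against 4.57% of all genes tested (0.733% that rose and 3.83% that fell) and 4.40% of all probe sets. The difference was positive for 22 of 26 replication genes, with a median of 0.18, and for 14 of 15 mitosis genes, with a median of 0.35, where all genes tested had a median of −0.02 and 44.8% positive. The mitosis median rested on single pools, at 0.08 without null pool 1 at 8 h and 0.13 without null pool 3 at 24 h. With the pool number as a replicate block, 0 members were called again, while the count over all probe sets went from 1044 to 1667. In a paired fit of the null arrays alone, 0 members and 566 probe sets were called, and the adjusted p was 0.10 for Rrm2, 0.26 for Cdt1 and Cenpa, 0.098 for Rfc3, 0.13 for Ube2c and 0.18 for Cdk1. The values below are from the fit without the block. Without null pool 1 at 24 h, Lig1 was called.

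Cdk1 in null glands was at 6.01, 6.70 and 6.42 at 8 h and at 6.68, 6.67 and 7.09 at 24 h (log2 0.44, SE 0.17, adjusted p = 0.16), so that the groups overlapped. Cenpa, the histone variant that marks centromeres, had the largest difference among mitosis genes (log2 0.59, SE 0.25, adjusted p = 0.21), followed by Ube2c, the ubiquitin-conjugating enzyme of the anaphase-promoting complex (1.46-fold, SE 0.24, adjusted p = 0.22). Ube2c in null pool 1 at 8 h, at 5.37, lay well below the other 11 arrays, which ranged from 6.17 to 6.93. Ccnb2 was at 5.42, 6.57 and 6.17 and then 5.85, 6.65 and 6.80, and Mki67 at 6.44, 7.29 and 7.21 and then 6.61, 7.60 and 7.87. Both genes were lowest in pool 1 at each time. So was Top2a, at 6.18, 6.96 and 6.78 and then 6.45, 6.98 and 7.56.

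Of the replication genes in null glands, Rrm2 had the largest difference (1.45-fold, SE 0.35, adjusted p = 0.42), then Cdt1 (1.35-fold, SE 0.31, adjusted p = 0.45) and Rfc3 (1.30-fold, SE 0.14, adjusted p = 0.15). Groups without overlap that were higher at 24 h were found for 7 replication genes (Lig1, Fen1, Rfc3, Rfc4, Gins1, Gins2 and Rpa2) and for Nusap1, which bundles spindle microtubules, where all genes tested gave 8.68%. The B lymphocyte markers had a median shift of 1.12 and the T lymphocyte markers of 1.19 over the same time. The luminal markers had one of −0.48, and 4 of 11 were called as fallen, against 3.83% of all genes tested. Skeletal muscle markers had a median shift of 0.62 and basal epithelium markers of −0.80. The part of any of these cell types in the members' differences was not tested.

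**Figure D5:**
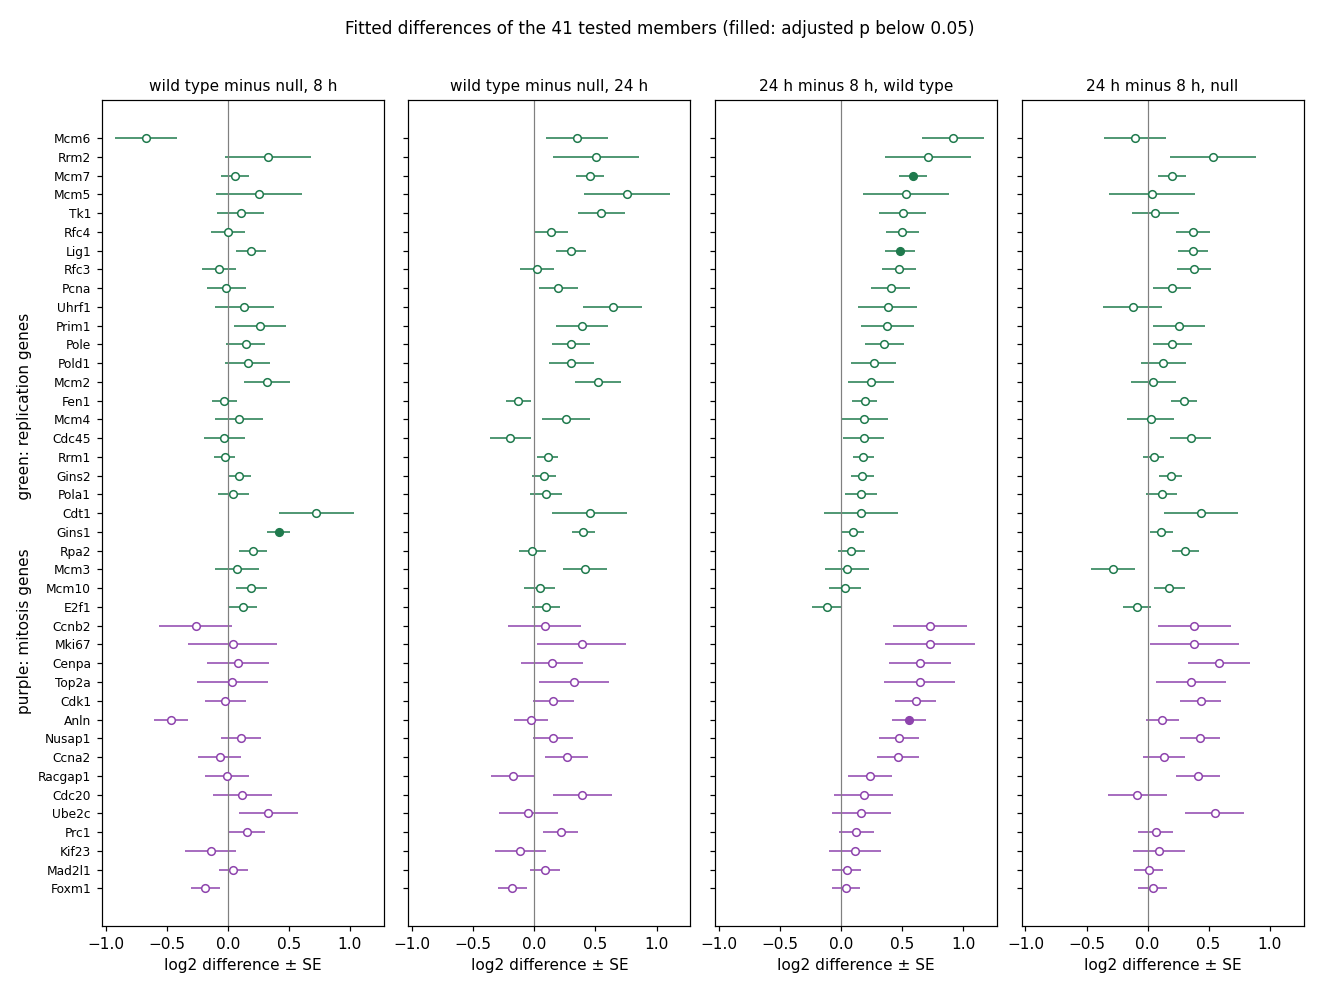
Fitted log2 difference ± SE for the 41 tested members (rows, replication genes in green above and mitosis genes in purple below) in 4 comparisons; filled points have an adjusted p below 0.05. Filled points are Gins1 for genotype at 8 h and Mcm7, Lig1 and Anln for time in wild type, and most points lie right of 0 in both time panels.

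The transcription factors on the list had small differences. E2f1, an activator of replication genes, had time differences of −0.12 in wild type and −0.09 in null glands and genotype differences of 0.13 at 8 h and 0.10 at 24 h. By its other tested probe set these were −0.10, 0.18, 0.13 and −0.15, so the sign depended on the probe set for time in null glands and genotype at 24 h. Foxm1, an activator of mitosis genes, had time differences of 0.04 in both genotypes. At 8 h it was at 6.25, 6.31 and 6.35 in wild type and at 6.53, 6.52 and 6.41 in null glands, lower in wild type without overlap (log2 −0.18, SE 0.12, adjusted p = 0.51). The mRNA level does not measure their activity.

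The promoter classes were set beside the values as a description. Of the tested replication genes with a window, 10 held an E2F match and 12 did not. The former include the helicase subunits Mcm3, Mcm5, Mcm6 and Mcm7. For the genotype at 8 h the median difference was 0.11 in genes with a match and 0.12 in those without. For the genotype at 24 h the median difference was 0.38 in genes with a match, all 10 positive, and 0.12 in those without. Over time it was 0.43 and 0.22 in wild type and 0.12 and 0.23 in null glands. Ranges overlapped in each case (0.02 to 0.76 and −0.20 to 0.55 for the genotype at 24 h), and no test was made. Of the 15 mitosis genes, 11 held a CHR, with a median of 0.56 over time in wild type, and only 2 with a window did not.

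The members below the filter were read as differences of group means, with no test. Over time in wild type, 13 of the 14 mitosis genes among them had a higher mean at 24 h, all but Kif11, with a median of 0.23, and 13 of 14 did in null glands. Bub1, the kinase of the spindle checkpoint, was at 4.43, 4.45 and 4.55 in wild type at 8 h and at 4.85, 4.80 and 5.11 at 24 h. In null glands it was at 3.68, 4.72 and 4.57 and then 4.03, 4.69 and 5.47, again lowest in pool 1. These values lie below the array medians, which were between 5.84 and 5.91. Cdc6, which loads the helicase, was at 5.39, 4.85 and 5.44 in wild type and at 4.87, 5.06 and 4.97 in null glands at 24 h.

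Several members had more than 1 probe set, and these did not always point the same way. Of the 17 replication and 4 mitosis genes with at least 2 tested probe sets, the sign of the difference varied within 6 and 3 genes for genotype at 8 h, 4 and 1 at 24 h, 4 and 1 for time in wild type and 5 and 2 for time in null glands. In none of these was one of the probe sets called. Top2a was among them in all 4 comparisons. The representing probe sets of Mcm2, Mcm3, Mcm7, Gins2 and Prc1 are of a type (suffix s) and those of Mcm5, Rrm2, Fen1, Pold1, Cdc20 and Aurkb of another (suffix x) whose probes can match other transcripts, so their values are less certain.

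Longer lists of the same pathways, fixed with results of these data known, are given beside the shares over all genes tested. Of 33 tested of 42 other replication genes, limma called 0 for genotype at 8 h or 24 h (0 and 2 at an unadjusted p below 0.05). Over time in wild type 2 rose, Dut, which hydrolyses dUTP (log2 0.50, SE 0.13, adjusted p = 0.0498), and Gmnn, the inhibitor of Cdt1 (log2 0.41, adjusted p = 0.045), and in null glands 1 rose, Gins4 (log2 0.34, adjusted p = 0.046). These 3 calls lie near the threshold: Dut was lost without any of 9 of the 12 arrays and Gmnn and Gins4 without any of 10, and all 3 with no filter, with centred arrays and with only the compared groups. With the mean of its probe sets Dut differed by 0.23 (adjusted p = 0.28). In the paired fit of the null arrays alone Gins4 was not called (adjusted p = 0.094). Of 28 tested of 55 other mitosis genes, 1 was higher in wild type at 8 h and 1 rose over time in wild type, with 0 called for genotype at 24 h (3 at an unadjusted p below 0.05) or over time in null glands (4). Over all genes tested, 1.58% were called higher in wild type at 8 h and 1.05% at 24 h. Called as risen over time were 1.45% in wild type and 0.733% in null glands.

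Spc25, a subunit of the NDC80 complex that binds microtubules at kinetochores, had the largest genotype difference of all these genes. It was at 6.57, 6.72 and 6.63 in wild type and at 5.21, 5.80 and 5.69 in null glands at 8 h (2.11-fold, SE 0.16, adjusted p = 0.0046), and stayed called when any 1 array was left out (adjusted p from 0.0039 to 0.026). At 24 h it was at 6.31, 6.23 and 6.66 against 5.72, 5.91 and 6.03, so the wild-type pools lay above the null pools at both times. Its wild-type pools lay above the array medians (5.84 to 5.91) and its null pools at 8 h below them. Spc25 too thus passed the filter mainly through wild type. Ncapg2, a subunit of condensin II, rose over time in wild type from 6.11, 6.19 and 6.17 to 6.64, 6.63 and 6.58 (1.37-fold, adjusted p = 0.015), and was lost without wild-type pool 1 at 8 h (adjusted p = 0.076) and with only the compared groups in the fit (adjusted p = 0.059). Gins1 and Spc25 were thus the replication and mitosis genes of these lists called between genotypes at 8 h, and neither time comparison called them.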

How the data were processed

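The deposited table held log2 values of 45101 probe sets on 12 Affymetrix arrays, 3 per group. The log2 scale was judged from the range of values. Per the submitters' processing notes MAS5 was used, its role and version unstated. How probes were summarized, corrected for background and normalized is not given in the sources used here. Array medians lay between 5.84 and 5.91, and within-group correlations between 0.965 and 0.993 over the tested probe sets. Precision is limited by the number of arrays. The platform annotation supplied the gene symbols, and only those with 1 symbol were used (34945 of 45037 that are not controls).

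Groups came from the labels. The 23709 probe sets above the array median on at least 3 arrays were tested with limma 3.58.1 in R 4.3.3 (lmFit, eBayes with a trended prior, 4 group means over 12 arrays, 8 residual degrees of freedom, no replicate block). Calls were made at an adjusted p below 0.05 (Benjamini-Hochberg, over all of them). SE is the moderated standard error of a log2 difference, and fold values are those of the larger over the smaller group mean. The fit was tried on simulated data with independent noise and changes added to wild type at 8 h only. That trial does not cover shifts shared by many genes of a pool. The limma p-values set a difference against the spread between pools of the same group, shared over the 4 groups and moderated by the prior.

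The members and lists were chosen with earlier results of these data known. Named were Pcna, Mcm2, Mki67, Top2a and Cdk1 in every pool, the called members of each comparison and class, or the 3 largest where fewer were called, and up to 4 called genes of each longer list. Other genes named were chosen after their values were seen, as were the role groups. Same-numbered null pools at 8 h and 24 h deviated together (r from 0.26 to 0.52 in 3 pairs, over all tested probe sets), each above 0.1, which was taken as a pairing of the null samples over time. Printed null time values are from the fit without the block, and the paired results are given beside them. The labels do not say what a number marks. The pairing thus rests on these data alone. In the other comparisons at least 1 pair did not reach 0.1, although single pairs reached 0.43 (genotype at 24 h) and 0.45 (time in wild type). Promoter sequences are from RefSeq, GRCm38.p6. Figures were drawn with matplotlib 3.10.9.

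The alternatives were another filter or none, 2 other variance priors, a floor, quantile normalization, arrays centred on their median, array weights, only the compared groups, a replicate block, the mean of a gene's probe sets, and each array left out in turn.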

Additional observations from a re-analysis of the deposited data

How the results depend on the processing

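Under alternatives that kept all arrays, both classes' medians kept their sign in every comparison, except that of mitosis genes for genotype at 8 h, which was −0.12 with array weights (0.04). Members called for genotype at 8 h (1) were 0 with no filter, 0 with the mean of a gene's probe sets and 5 with array weights. For genotype at 24 h (0) they were 1 with a prior without trend and 1 with array weights. For time in wild type (3) they were 1 with no filter, 1 with arrays centred on their median and 7 with array weights, and those over time in null glands (0) were 6 with array weights. Probe sets called with array weights were 4017 for genotype at 8 h (729), 685 at 24 h (262), 169 for the interaction (34) and 5775 for time in null (1044), and the interaction median of mitosis genes was 0.39 (0.06). With only the compared groups in the fit, 71 were called for genotype at 24 h, 500 over time in wild type (1238) and 348 in null glands. With 1 mean per gene, over fewer rows, the counts were 313, 134, 18, 456 and 386 in the order genotype at 8 h and 24 h, interaction, time in wild type and in null. A filter at 6 arrays gave 21 for the interaction. Apart from fewer rows or samples, the cause was not tested.

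With the replicate block, members called were 0 for genotype at 8 h and 7 over time in wild type (Mcm6, Mcm7, Pcna, Lig1, Rfc4, Cdk1 and Anln), and probe sets called were 482 for genotype at 24 h and 1667 for time in null. With only the null groups and the block, added after seeing the data, 566 probe sets were called for time in null. The block changed no call of a member at 24 h, in the interaction or over time in null. In every comparison the labels give no more than a shared number, and the pairing of null samples over time was inferred from these same values.

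Leaving out 1 array at a time gave 0 to 1 members for genotype at 8 h, 0 to 2 at 24 h, 0 to 4 over time in wild type and 0 to 1 in null glands. Probe sets called ranged from 320 to 889 for genotype at 8 h, from 126 to 704 at 24 h, from 12 to 45 for the interaction, from 239 to 1328 over time in wild type and from 232 to 1202 in null glands. The replication median at 24 h ranged from 0.11 to 0.44, the interaction median of mitosis genes from 0.015 to 0.32 and the mitosis median for time in null from 0.077 to 0.50, and the median of mitosis genes at 8 h turned to −0.16 at its lowest and that of the replication interaction to −0.0099. The interaction of Mki67 ranged from −0.029, without null pool 1 at 24 h, to 0.73. With 3 pools a group, an uncalled difference does not show equal levels.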
